A study of Mus musculus with 7 samples.

Results

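The heterogeneous nuclear ribonucleoproteins (hnRNP) and the serine/arginine-rich (SR) proteins, RNA-binding proteins that act on splicing, were followed in mouse liver at 3 and 21 months of age. Members were taken by symbol alone: rows beginning with Hnrnp formed the hnRNP family, and rows beginning with Srsf or Sfrs and a number formed the SR family. This gave 30 of the 23366 rows in the tables, 18 hnRNP and 12 SR. RNA was sequenced from livers of C57BL/6 mice, an inbred strain, with 4 samples at 3 months and 3 samples at 21 months. The labels name no treatment, genetic change or sex at either age. Nor do they say whether each sample is another animal, so the p-values speak only of the variation among these libraries, which could be technical. The question set by the design is how the liver transcriptome differs between young and old mice.

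The hnRNP proteins coat nascent transcripts in the nucleus and often keep nearby splice sites from being used, although several also act in transcription, mRNA export, stability and translation. The SR proteins bind exonic sequences through RNA recognition motifs and recruit the U1 and U2 snRNPs through their arginine/serine-rich tails, which usually favours exon inclusion. The families often act in opposition on the same exon. Many members of both limit their own amount by splicing in an exon that sends the transcript to nonsense-mediated decay. The row Sfrs18 carries an older symbol of Pnisr, an arginine/serine-rich nuclear protein that is not a classical SR protein. The hnRNP-type genes Hnrpdl and Hnrpll do not match the rule and were counted among the related genes.

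Promoters are shown for 4 members whose values differed in size or direction between the ages, as RefSeq gives them on GRCm38.p6, from 250 bases before to 50 bases after the transcription start, 5′ to 3′ on the gene's strand. Hnrnpm had the largest fall of the members, and its window is chr17:33685409-33685708 on the minus strand. Hnrnpa2b1 was the most abundant member, at chr6:51469845-51470144 on the minus strand. Srsf7 was the SR member that fell, at chr17:80207256-80207555 on the minus strand. Hnrnpc was the hnRNP gene with all 21-month libraries above all 3-month libraries, at chr14:52103972-52104271 on the minus strand. Capitals mark matches on either strand to 6 motifs. The GC box was searched as GGGCGG, the ETS motif as CCGGAAG and the CCAAT box by its own letters. The TATA box was searched as TATAAA, the E box as CACGTG and the NRF1 core as CGCATGCG. None of these contains another.
Hnrnpm: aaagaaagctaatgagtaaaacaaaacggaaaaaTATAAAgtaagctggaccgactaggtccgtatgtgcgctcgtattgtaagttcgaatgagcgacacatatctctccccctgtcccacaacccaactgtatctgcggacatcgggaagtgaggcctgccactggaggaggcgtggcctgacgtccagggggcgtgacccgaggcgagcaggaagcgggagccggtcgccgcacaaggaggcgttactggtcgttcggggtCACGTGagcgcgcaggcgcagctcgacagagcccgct
Hnrnpa2b1: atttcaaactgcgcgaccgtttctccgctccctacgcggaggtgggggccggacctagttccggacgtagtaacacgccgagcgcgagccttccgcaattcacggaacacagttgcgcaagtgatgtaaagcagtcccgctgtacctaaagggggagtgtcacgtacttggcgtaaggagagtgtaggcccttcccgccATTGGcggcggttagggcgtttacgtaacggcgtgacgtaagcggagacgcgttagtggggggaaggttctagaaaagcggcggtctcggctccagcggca
Srsf7: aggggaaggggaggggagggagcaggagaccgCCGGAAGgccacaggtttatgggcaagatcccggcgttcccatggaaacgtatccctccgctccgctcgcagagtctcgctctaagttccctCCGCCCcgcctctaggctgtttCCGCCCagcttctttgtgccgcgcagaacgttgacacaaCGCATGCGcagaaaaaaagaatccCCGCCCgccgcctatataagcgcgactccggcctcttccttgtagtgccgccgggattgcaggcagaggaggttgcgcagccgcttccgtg
Hnrnpc: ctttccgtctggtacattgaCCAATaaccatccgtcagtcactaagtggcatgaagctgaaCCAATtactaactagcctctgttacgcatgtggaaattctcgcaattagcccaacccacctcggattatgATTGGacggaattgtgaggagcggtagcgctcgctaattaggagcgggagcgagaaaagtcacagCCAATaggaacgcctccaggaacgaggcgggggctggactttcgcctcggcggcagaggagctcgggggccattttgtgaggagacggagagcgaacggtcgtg
The window of Hnrnpc held 4 CCAAT matches, that of Hnrnpa2b1 held 1, and that of Srsf7 held 3 GC boxes. The windows of Hnrnpul1, which was lower at 21 months, and of Hnrnpr, Hnrnpl and Hnrnpa1, which had no call, also held 4 CCAAT matches. A match describes letters only and is not a bound site.

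Windows were matched for 28 of the 30 members, and Hnrnpul2 and Sfrs18 had no match. Each gene was represented by the first window listed for it, and other transcription starts were not examined. The CCAAT box was present in 12 of 17 hnRNP promoters (70.6%) and 4 of 11 SR promoters (36.4%), against 39.2% of the 8428 promoters of genes tested for expression and 37.9% of all 27025 promoters. The GC box was present in 12 of 17 hnRNP promoters and 10 of 11 SR promoters (90.9%), against 64.4% of tested genes and 35.9% of all. The GC content had a median of 60.0% in the hnRNP windows, 69.0% in the SR windows and 61.0% over tested genes. The SR windows were thus the richer in G and C, and the GC box is itself made of those letters. An ETS match stood in 2 hnRNP and 4 SR promoters (18.7% of tested genes, 9.12% of all), and a TATA box in 2 of each family (7.18% of tested genes, 14.2% of all). An E box stood in 4 hnRNP promoters and no SR promoter (10.5% of tested genes, 7.24% of all). The NRF1 core was found in 1 SR promoter, that of Srsf7, and in 4.19% of tested genes and 1.91% of all. Among members lower at 21 months a GC box stood in 4 of 8 promoters, and among tested members without a call in 17 of 19. These shares describe few promoters and were not tested.

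The libraries held 4724687 to 11143125 expected counts at 3 months and 6882935 to 10458583 at 21 months. The hnRNP rows drew 6729 to 16002 of these counts per library at 3 months and 7321 to 11363 at 21 months, and the SR rows 2223 to 5585 and 2711 to 4475. The shortfall of effective below full gene length was 34.4 to 38.8 bases at 3 months. It was 35.4, 30.9 and 21.4 bases in 21-month replicates 1, 2 and 3. What sets it is not given in the sources used here. Replicates 2 and 3 at 21 months lay below every 3-month library, so a fit with the shortfall as a covariate cannot fully separate it from age. Hepatocyte markers, which define the main liver cell, were abundant in every library, at a summed 60187 to 73299 CPM (counts per 1e+06 counts, scaled between libraries) at 3 months and 76976 to 81568 at 21 months, with 1 of 8 higher (Alb) and 1 lower (Apoa1). B and plasma cell markers summed to 2.92 to 3.64 CPM at 3 months and 8.47 to 39.4 CPM at 21 months, with 1 of 2 tested (Igj, the immunoglobulin joining chain) higher and a median log2 fold change of 3.66. The sums were higher at 21 months for T and NK cell markers too, at 0.649 to 1.54 and 2.66 to 4.61 CPM, and for neutrophil markers, at 0.343 to 1.21 and 1.28 to 3.49 CPM, none of which had enough counts to be tested. Macrophage markers (197 to 331 and 115 to 361 CPM), endothelial markers (134 to 233 and 102 to 218 CPM), stellate cell markers (98.4 to 149 and 87.5 to 168 CPM) and red cell markers (618 to 1717 and 1016 to 1275 CPM) overlapped between the ages. Of the tested markers in these 4 lists, 1 of 7 endothelial markers (Lyve1) was lower and the remaining lists had no call. Bile duct markers summed to 31.8 to 46.4 and 28.9 to 31.6 CPM, with 1 of 4 tested (Sox9) lower. No marker was at 0 in all libraries. In whole liver, fewer cells of a type and less RNA per cell cannot be told apart, and the part of these markers in the results below was not tested.

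The TPM value (transcripts per 1e+06 transcripts), which corrects for gene length and so allows levels of different genes to be compared, placed Hnrnpa2b1 first. Its protein, hnRNP A2/B1, binds pre-mRNA and sorts mRNA and microRNA. Its TPM values were 151, 182, 182 and 156 in 3-month replicates 1 to 4 and 127, 126 and 123 in 21-month replicates 1 to 3, with means of 168 ± 16.3 (SD, n = 4) and 125 ± 2.07 (SD, n = 3). All 3-month libraries were above all 21-month libraries on this scale. Hnrnpk, a KH-domain protein that binds C-rich RNA and DNA, and Hnrnpf, which binds G-rich tracts, followed at mean TPM of 123 and 124 at 3 months and 107 and 103 at 21 months. The library values of this last pair overlapped each other at both ages. The lowest hnRNP levels were those of Hnrnph3 (TPM 5.67 and 4.11) and Hnrnpd (6.29 and 5.15).

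Among SR genes, Srsf5 and Srsf2 were the most abundant by TPM. Srsf2 (SC35), a protein of nuclear speckles, was at 87.9, 100.5, 91.6 and 89.3 TPM at 3 months and 98.6, 95.5 and 95.6 TPM at 21 months. Srsf5 was at 60.0, 122, 127 and 93.2 TPM at 3 months and 94.0, 80.1 and 91.5 TPM at 21 months. The order of this pair changed between libraries, since the 3-month values of Srsf5 spread over more than the whole range of Srsf2. Srsf6, next in order, had a mean TPM of 32.0 ± 3.86 (SD, n = 4) at 3 months and 31.1 ± 1.30 (SD, n = 3) at 21 months. It did not stand apart from Srsf9, at 29.6 ± 3.59 (n = 4) and 32.0 ± 5.12 (n = 3). Srsf12 was nearly absent, with 4 expected counts over all libraries, and was not tested.

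**Figure D1:**
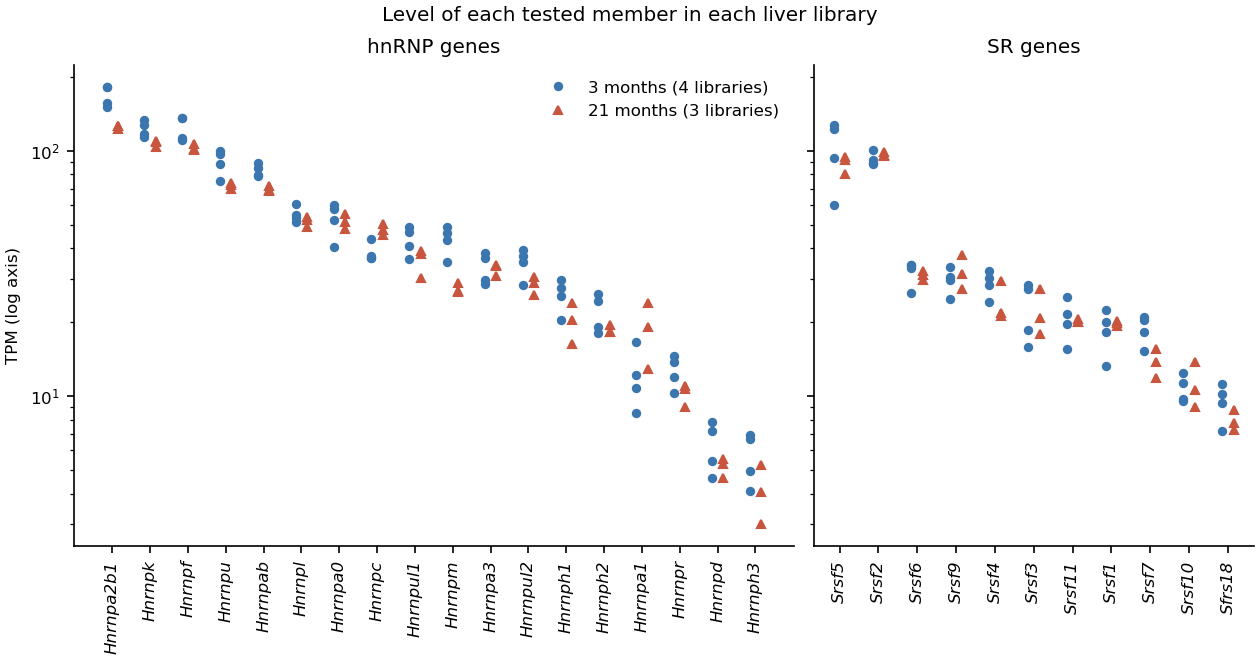
TPM (log axis) of each tested hnRNP and SR gene at 3 months (n = 4) and 21 months (n = 3), with the value of each library as a point. Hnrnpa2b1 is highest among hnRNP genes and Srsf5 and Srsf2 are highest among SR genes at both ages.

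The hnRNP family was lower at 21 months in 8 of its 18 genes, and no member was higher. The lower genes were Hnrnpm, Hnrnpa2b1, Hnrnpu, Hnrnpf, Hnrnpab, Hnrnpul2, Hnrnpul1 and Hnrnpk, with falls of 1.24-fold to 1.71-fold. The share of 44.4% is to be read against 5.86% of the 11251 genes tested that were lower and 5.47% that were higher (edgeR's quasi-likelihood test, Benjamini-Hochberg adjusted p under 0.05). The SR family had 1 lower gene of 11 tested, Srsf7 (9.09%), and none higher. At an unadjusted p under 0.05, no member of either family was higher, 14 of 18 hnRNP and 3 of 11 SR genes were lower, and DESeq2 also called no member higher. Over all genes tested 13.9% were lower and 12.7% higher at that unadjusted threshold. The difference between the families was not tested.

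The median log2 fold change was -0.39 over hnRNP genes (range -0.77 to 0.54) and -0.13 over SR genes (range -0.49 to -0.01), against -0.0015 over all genes tested. By libraries, all 21-month values were below all 3-month values for 11 hnRNP genes and 1 SR gene, against 12.8% of all genes tested. The opposite order was found for 1 hnRNP gene, Hnrnpc, and no SR gene, against 11.3% of all. Under 17 other ways of processing the family medians stayed below 0, at -0.41 to -0.25 for hnRNP and -0.24 to -0.02 for SR. On log2 TPM all tested genes together had a median of 0.11, the hnRNP median was -0.25 and the SR median -0.02. Lower genes then made up 25.1% of all calls, against 51.7% in the count test, and 2 hnRNP genes, Hnrnpm and Hnrnpa2b1, remained called with limma.

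**Figure D2:**
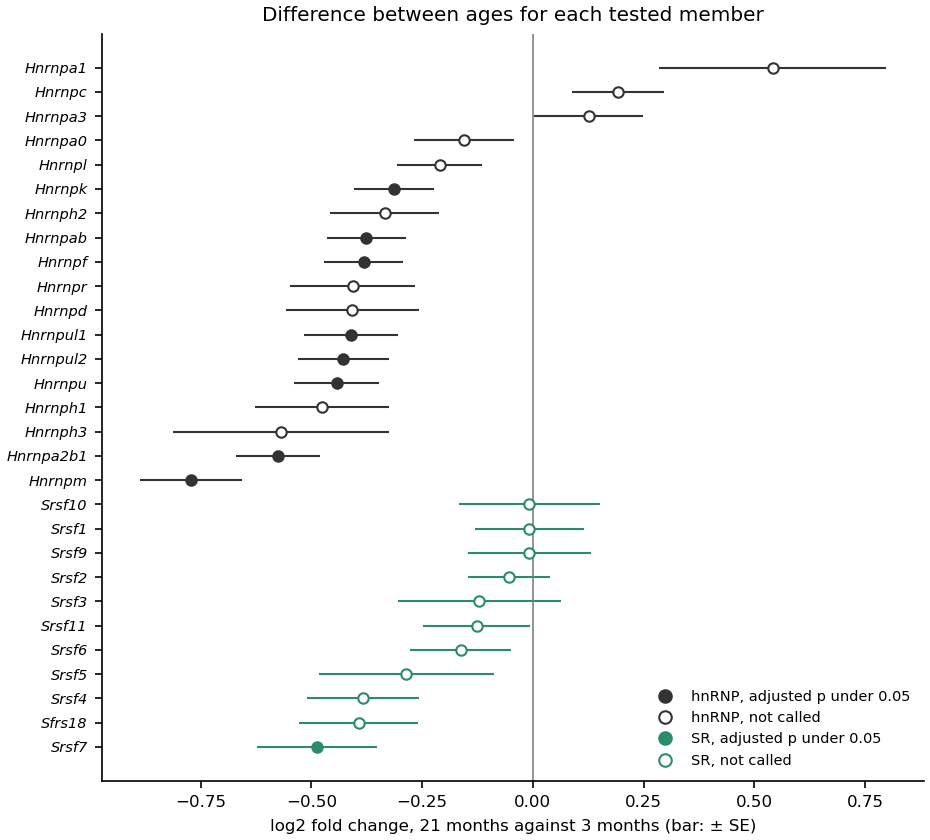
Log2 fold change (21 over 3 months) of each tested hnRNP and SR gene from edgeR, with its standard error, in order of size. The lower genes past the adjusted threshold are 8 hnRNP genes and Srsf7, and hnRNP genes reach from -0.77 to 0.54.

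Hnrnpm had the largest fall. Its product, hnRNP M, binds GU-rich intronic sequence and regulates alternative exons. Scaled CPM were 46.4, 56.8, 54.8 and 58.9 in 3-month replicates 1 to 4 and 35.2, 30.03 and 29.97 in 21-month replicates 1 to 3, with every 21-month library below every 3-month library. The mean went from 54.2 ± 5.50 (SD, n = 4) to 31.7 ± 2.99 (SD, n = 3), a log2 fold change of -0.77 ± 0.12 (SE) with an edgeR adjusted p of 0.000958. The gene passed the threshold in all 17 alternatives. Hnrnpa2b1 was at 197, 206, 212 and 212 CPM at 3 months and 153, 137 and 127 CPM at 21 months. The ages were well apart, the fall was 1.49-fold, and the log2 fold change was -0.58 ± 0.10 (SE, edgeR adjusted p = 0.0018). With the shortfall of effective length as a covariate its edgeR adjusted p was 0.0590, the highest of the 17 alternatives.

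The 3 genes of the U group all fell. Hnrnpu encodes the scaffold attachment factor SAF-A, which binds RNA and chromatin, and was at 149.8, 177, 174 and 182 CPM at 3 months and 129, 122 and 126 CPM at 21 months. Its related genes Hnrnpul2 and Hnrnpul1 encode proteins that act in DNA damage and mRNA export. Hnrnpul2 was at 89.2, 109, 104 and 114 CPM and then 74.5, 81.1 and 76.9 CPM, and Hnrnpul1 at 56.6, 67.5, 65.3 and 65.4 CPM and then 43.1, 51.5 and 49.6 CPM. In each of the 3 genes the 21-month libraries lay below all 3-month libraries. The log2 fold changes were close together, at -0.44 ± 0.10 (SE) for Hnrnpu, -0.43 ± 0.10 for Hnrnpul2 and -0.41 ± 0.11 for Hnrnpul1, with edgeR adjusted p-values of 0.00891, 0.0149 and 0.0227.

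Hnrnpf, Hnrnpab and Hnrnpk completed the lower genes. Hnrnpf was at 135, 148, 148 and 143 CPM at 3 months and 115, 111 and 105 CPM at 21 months, a log2 fold change of -0.38 ± 0.09 (SE, edgeR adjusted p = 0.0137). Hnrnpab, an A/B-type RNA- and DNA-binding protein, was at 106, 100.4, 107 and 109.9 CPM and then 84.0, 78.6 and 81.7 CPM, a log2 fold change of -0.38 ± 0.09 (SE, edgeR adjusted p = 0.0142). Both genes had a gap between the ages wider than the spread within either age. Hnrnpk was the most even of the members at 3 months, at 125, 126, 121 and 125 CPM, and was at 108, 93.2 and 99.1 CPM at 21 months. Its fall was the smallest of the called genes, at -0.31 ± 0.09 (SE, edgeR adjusted p = 0.0366).

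**Figure D3:**
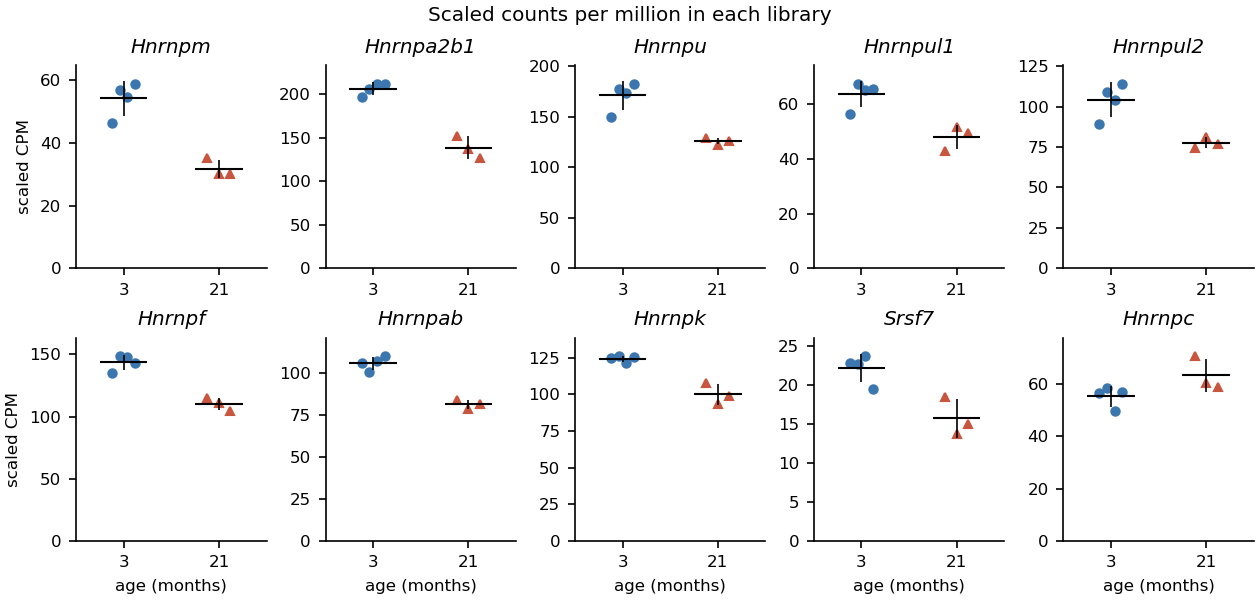
Scaled CPM of the 9 lower genes and of Hnrnpc in each library, with age in months on the x axis and lines for the mean and SD (n = 4 and n = 3). In the first 9 panels every 21-month library lies below every 3-month library, and in the panel of Hnrnpc every 21-month library lies above.

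The number of calls, among the members and over all genes, leaned on single libraries. Without 21-month replicate 3, whose shortfall was the smallest, 2 hnRNP genes and no SR gene were lower. Without 21-month replicate 1 the counts were 12 and 1. Over all genes tested 2.20% and 7.91% were lower in these fits, against 5.86% in the main fit. The hnRNP median log2 fold change was -0.34 and -0.41 in them, against -0.39. Without 21-month replicate 3 the edgeR adjusted p was 0.0507 for Hnrnpu, 0.0894 for Hnrnpf, 0.0666 for Hnrnpab, 0.0722 for Hnrnpul2, 0.0759 for Hnrnpul1 and 0.139 for Hnrnpk. Over the 17 alternatives the adjusted p reached 0.111 for Hnrnpu, 0.170 for Hnrnpf, 0.144 for Hnrnpab, 0.196 for Hnrnpul2, 0.242 for Hnrnpul1 and 0.248 for Hnrnpk, and the lowest values were 0.00181, 0.00606, 0.00918, 0.00667, 0.0132 and 0.0123. Hnrnpul1 also lost its call without 3-month replicate 2, 3 or 4. Hnrnpk lost it in 11 of 17 alternatives, among them the removal of any 3-month replicate and the replicate block (edgeR adjusted p = 0.0608), in which 3-month replicate 4 has no partner and adds nothing to the estimate. With the shortfall as a covariate 1 hnRNP gene was lower, as were 1.36% of all genes tested, and the hnRNP median was -0.30.

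Of the 10 hnRNP genes without a call, 7 had a negative log2 fold change. Hnrnpr, Hnrnph2 and Hnrnpl had all 21-month libraries below all 3-month libraries, with edgeR adjusted p-values of 0.0744, 0.0934 and 0.173. Hnrnph1, a G-tract binder like Hnrnpf, was at 24.5, 31.7, 27.5 and 34.2 CPM at 3 months and 22.6, 16.5 and 24.6 CPM at 21 months (log2 fold change -0.48 ± 0.15, edgeR adjusted p = 0.0545). Its 21-month replicate 3 reached just above 3-month replicate 1. Hnrnpd (AUF1, which binds AU-rich elements) and Hnrnph3 had log2 fold changes of -0.41 ± 0.15 and -0.57 ± 0.24 with overlapping libraries, and Hnrnph3 rested on 293 expected counts in all. Hnrnpa0 had a log2 fold change of -0.16 ± 0.11. Without 21-month replicate 1 Hnrnph1, Hnrnph2, Hnrnph3 and Hnrnpr passed the threshold (edgeR adjusted p = 0.0496, 0.0419, 0.0319 and 0.0314), and Hnrnph3 then stood at -0.86. Without 3-month replicate 1 Hnrnpd and Hnrnph1 passed it (0.0444 and 0.0453), as did Hnrnph1 with no filter on low counts (0.0288). The highest adjusted p over the 17 alternatives was 0.194 for Hnrnph1, 0.494 for Hnrnph2, 0.803 for Hnrnph3, 0.363 for Hnrnpr and 0.580 for Hnrnpd.

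The other 3 hnRNP genes had positive values. Hnrnpc, which binds U-rich tracts and competes with U2AF at splice sites, was at 56.8, 58.4, 49.6 and 56.8 CPM at 3 months and 70.6, 60.6 and 58.9 CPM at 21 months. The ages did not overlap, but the gap was small beside the spread within each age (log2 fold change 0.19 ± 0.10, edgeR adjusted p = 0.257). Hnrnpa1, the best-known antagonist of SR proteins, was at 11.9, 7.46, 14.8 and 11.04 CPM and then 20.9, 10.6 and 15.8 CPM, with overlapping libraries (log2 fold change 0.54 ± 0.26, edgeR adjusted p = 0.211). Without 21-month replicate 2 its adjusted p was 0.0455, the lowest of its alternatives, whose highest was 0.472. Hnrnpa1 has many near-identical copies in the genome, so its reads may have been split among them and its level is uncertain. Hnrnpa3 was at 64.6 ± 6.33 CPM (SD, n = 4) and 70.5 ± 12.7 CPM (SD, n = 3), a log2 fold change of 0.13 ± 0.12 that became -0.0021 on the log2 TPM scale.

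Srsf7, a shuttling SR protein that takes part in mRNA export and polyadenylation site choice, was the SR gene that fell. It was at 22.8, 22.7, 23.7 and 19.5 CPM at 3 months and 18.4, 13.7 and 14.98 CPM at 21 months. The ages were apart, with 3-month replicate 4 and 21-month replicate 1 closest together. The log2 fold change was -0.49 ± 0.14 (SE, edgeR adjusted p = 0.0321). Over the 17 alternatives the adjusted p ran from 0.00625 to 0.306. The call was lost in 10 of them, among them DESeq2 (adjusted p = 0.0572) and the removal of 3-month replicate 1, 2 or 3 or of 21-month replicate 2 or 3 (edgeR adjusted p = 0.0709, 0.0866, 0.0903, 0.104 and 0.135).

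The remaining 10 tested SR genes had no call, and their log2 fold changes ran from -0.39 to -0.01. Srsf4 (-0.38 ± 0.13, edgeR adjusted p = 0.0633) and Sfrs18 (-0.39 ± 0.13, edgeR adjusted p = 0.0701) came closest to the threshold. Srsf4 passed it with no filter on low counts and without 21-month replicate 2 (edgeR adjusted p = 0.0464 and 0.0232), and Sfrs18 without 3-month replicate 1 (edgeR adjusted p = 0.0340); their highest values over the 17 alternatives were 0.325 and 0.420. Srsf5 was at 50.004, 89.7, 94.9 and 79.8 CPM at 3 months and 72.0, 56.4 and 65.2 CPM at 21 months. Its 3-month replicate 1 was below all other libraries of either age, so the ages overlapped (log2 fold change -0.29 ± 0.20, edgeR adjusted p = 0.404). Without that library the log2 fold change of Srsf5 was -0.45 and passed the threshold (edgeR adjusted p = 0.0375, the lowest of its alternatives, whose highest was 0.797). Srsf6 was at 50.7, 58.8, 57.4 and 68.2 CPM and then 57.7, 48.6 and 51.1 CPM (-0.16 ± 0.11). Srsf2 was at 89.97, 91.1, 83.9 and 94.3 CPM and then 93.1, 82.7 and 83.7 CPM (-0.05 ± 0.09). Both overlapped between the ages. Srsf1, the prototype SR protein, Srsf9 and Srsf10 had values of -0.01 ± 0.12, -0.01 ± 0.14 and -0.01 ± 0.16. The signs of these 3 genes turned positive under scaling by relative log expression, where 8 of 11 SR values were negative, and 6 of 11 were negative on the TPM scale. Srsf3 (-0.12 ± 0.18) and Srsf11 (-0.13 ± 0.12) also overlapped between the ages.

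Summed over the family, hnRNP TPM was 863, 1060, 1050 and 917 at 3 months and 831, 827 and 830 at 21 months. All 3-month sums were above all 21-month sums, and the ratio of the means was 0.853. The SR sum was 315, 433, 434 and 355 TPM at 3 months and 378, 353 and 371 TPM at 21 months. These overlapped, with a ratio of 0.956. The SD of the hnRNP sums was 97.8 TPM at 3 months (n = 4) and 2.00 TPM at 21 months (n = 3). The hnRNP to SR ratio was 2.74, 2.45, 2.42 and 2.59 at 3 months and 2.20, 2.34 and 2.24 at 21 months, with means of 2.55 ± 0.148 (SD, n = 4) and 2.26 ± 0.0733 (SD, n = 3). The ratios of the ages did not overlap. A sum over chosen genes was described and not tested. TPM is relative to all transcripts, whose median shift is given above. On scaled CPM the hnRNP sums were 1239, 1373, 1361 and 1380 at 3 months and 1120, 1022 and 1025 at 21 months. The SR sums were 406, 479, 481 and 449 CPM at 3 months and 441, 379 and 395 CPM at 21 months, which overlapped.

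**Figure D4:**
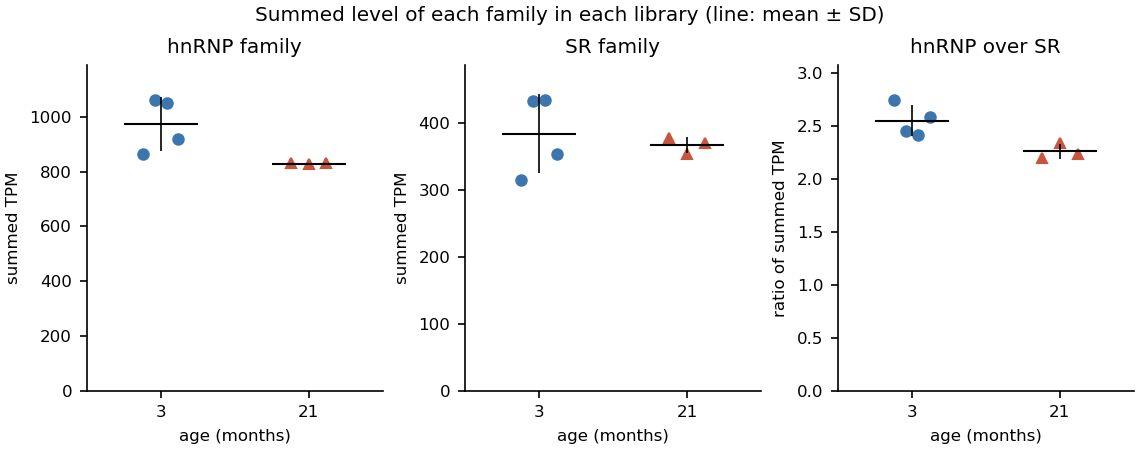
Summed TPM of hnRNP genes, summed TPM of SR genes and their ratio in each library, against age in months, with lines for the mean and SD (n = 4 and n = 3). The hnRNP sums and the ratio are lower in all 21-month libraries, and the SR sums overlap.

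Shares of hnRNP TPM are given for some members and were not tested. Hnrnpa2b1 supplied 17.2% ± 0.227 of hnRNP TPM at 3 months (SD, n = 4) and 15.1% ± 0.259 at 21 months (SD, n = 3), with no overlap. Hnrnpm supplied 4.45% ± 0.289 and 3.30% ± 0.148, and Hnrnpc 3.97% ± 0.359 and 5.75% ± 0.317. Grouped by the letter of the name, 2 of 6 A/B genes (with Hnrnpd), 1 of 4 F/H genes and 3 of 3 U genes were lower. So were 2 of 5 among C, K, L, M and R, against 5.86% of all genes tested. The median log2 fold changes were -0.27, -0.43, -0.43 and -0.31 in this order. These groups hold few genes and were not tested. The median coefficient of variation of CPM in SR genes was 12.2% at 3 months and 12.1% at 21 months. In hnRNP genes it was 9.13% and 9.32%. Srsf5 reached 25.5% at 3 months, and Hnrnpa1 reached 26.6% at 3 months and 32.6% at 21 months. The tested SR genes were also lower in level, with a median TPM of 22.3 over all libraries against 38.2 in hnRNP genes. The part of this difference in level in the spread was not tested.

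The deposited gene length, which RSEM weights by the isoforms it estimates, was used as a readout of isoform choice, since both families splice their own transcripts. Of 29 tested members, 16 had a length that differed by more than 1 base among libraries, and none passed limma's test (Benjamini-Hochberg over 2478 genes; 3 members had an unadjusted p under 0.05, and no other tool was run). Over all 2478 genes 0.121% passed. Hnrnpa3 had lengths of 3707, 3933, 3735 and 3687 bases at 3 months and 4859, 4109 and 4398 bases at 21 months. Every 21-month library was longer, by 689.8 bases on average, with a limma adjusted p of 0.412. Hnrnpa1 was shorter in every 21-month library, at 1839 ± 12.4 bases (SD, n = 4) and 1784 ± 22.2 bases (SD, n = 3), and the limma adjusted p was 0.395. Hnrnpm was longer by 12.8 bases (limma adjusted p = 0.442). Srsf7 was at 2312, 2312, 2325 and 2282 bases and then 2370, 2525 and 2351 bases, all 21-month libraries above (limma adjusted p = 0.617). The share of all 2478 genes whose lengths did not overlap between the ages was not computed. The orders of the libraries given here therefore describe these genes and do not set them apart from other genes. The length is an estimate from an isoform model, not a direct count of isoforms.

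The wider splicing machinery was examined through 8 lists that held 180 tested genes besides the members, of which 41 were lower and 5 higher, and a list of cell cycle genes was set beside them. Among the SR-related proteins, which carry arginine/serine-rich regions without the SR layout, 9 of 27 were lower and none higher, with a median log2 fold change of -0.35. Srrm1, a nuclear matrix coactivator of splicing, had a log2 fold change of -0.71 ± 0.10 (SE, edgeR adjusted p = 0.000628). Rbm25 and Pnn followed at -0.77 ± 0.12 and -1.22 ± 0.19 (edgeR adjusted p = 0.0012 and 0.00171), and Thrap3 at -0.49 ± 0.10 (edgeR adjusted p = 0.00751). Of the hnRNP-type genes with other symbols, 2 of 21 were lower, among them Taf15 (-0.57 ± 0.13, edgeR adjusted p = 0.0102), and 1 was higher, Ptbp3 (0.38 ± 0.11, edgeR adjusted p = 0.0306), with a list median of -0.15. Of the kinases and import factors that act on SR proteins, 1 of 12 was lower, Prpf4b (-0.46 ± 0.13, edgeR adjusted p = 0.0306), and the list median was -0.24.

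The core snRNP list had 8 of 31 lower and none higher, with a median of -0.33. Prpf6 (-0.67 ± 0.10), Snrnp70 of the U1 snRNP (-0.76 ± 0.12), Snrpf (-1.14 ± 0.21) and Ddx23 (-0.69 ± 0.13) had the smallest edgeR adjusted p-values, at 0.000889, 0.00103, 0.00351 and 0.00397. In the list of branch point and 3′ splice site recognition, 4 of 17 were lower, all SF3 subunits: Sf3a1, Sf3b2, Sf3a2 and Sf3a3, with a list median of -0.17. In the list of catalysis and the Prp19 complex, 10 of 26 were lower, with a median of -0.41, led by Ik, Snw1, Prpf38a and Crnkl1 (log2 fold changes -0.72, -0.80, -1.14 and -0.84). The exon junction complex and nonsense-mediated decay list, which removes the transcripts of hnRNP and SR genes that carry a decay-causing exon, had 3 of 14 lower: Upf3a (-1.43 ± 0.21), Rbm8a (-0.53 ± 0.11) and Upf3b (-0.87 ± 0.23), median -0.24. No gene was higher in these last 3 lists.

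Among other splicing regulators 4 of 32 were lower and 4 higher, with a median of -0.10. Those with the smallest adjusted p were Rbm10 (-0.64 ± 0.11), Ybx1 (-0.48 ± 0.10) and Rbm17 (-0.70 ± 0.15), which were lower, and Mbnl1 (0.50 ± 0.11, edgeR adjusted p = 0.00903), a muscleblind protein, which was higher. The cell cycle list had no call among 11 genes tested with edgeR (1 of them at an unadjusted p under 0.05), with a median of 0.23. The higher and lower genes of these lists are shares of a table in which 5.86% of genes were lower and 5.47% higher.

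**Figure D5:**
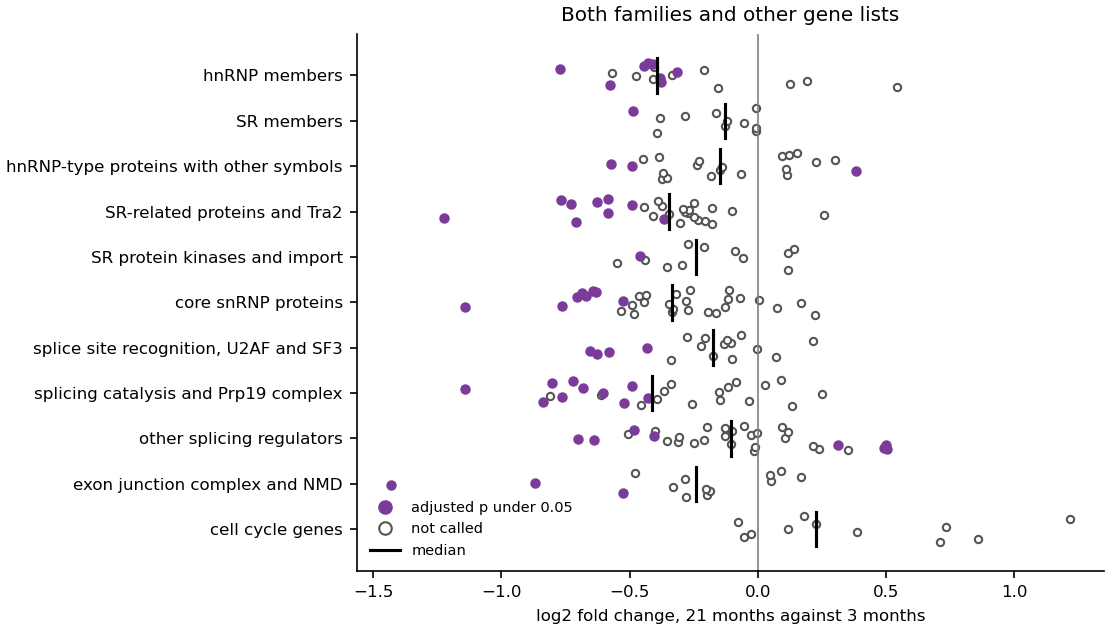
Log2 fold change (21 over 3 months) of the tested genes in both families and in the other gene lists, with each list's median. Medians are -0.39 for hnRNP genes, -0.13 for SR genes, -0.41 for catalysis and the Prp19 complex and 0.23 for cell cycle genes.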

How the data were processed

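Livers of C57BL/6 mice aged 3 months (n = 4) and 21 months (n = 3) were profiled by RNA sequencing of strand-specific poly(A) libraries made with PCR and no molecular identifiers, per the labels' protocols. The authors deposited expected counts and TPM per gene, with gene length and effective length, per the file headers; length and effective length are in bases. The submitters' processing notes name TopHat, RSEM, edgeR and the build mm9, with no version or role; whether counting used strand is not given in the sources used here. Of the expected counts 86.5% were whole, and all were rounded for the tests. Genes passed filterByExpr (minimum count 10, minimum total 15), which left 11251. TMM scaling was used, and the test was edgeR 4.0.16 (robust quasi-likelihood, R 4.3.3), p adjusted by Benjamini-Hochberg over all genes, threshold 0.05. CPM are TMM-scaled. Gene length was tested with limma 3.58.1 on log2 values over genes that differ by more than 1 base. DESeq2 1.42.0, other scalings and filters, removal of the Rn45s and Lars2 rows, TPM with a pseudocount of 0.5 or 0.1 in limma, the shortfall covariate, the replicate block and removal of each library were the alternatives. The statistics were tested on simulated data. Figures used matplotlib 3.10.9 in Python 3.11.15.

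The labels use the same replicate numbers at both ages. Deviations of same-numbered libraries correlated at 0.107, 0.174 and 0.104 across genes, all above 0.1. No label says what they share, and 3-month replicate 4 and 21-month replicate 1, which differ in number, correlated at 0.159. A pairing of the samples was thus not established. The main test left the numbers out, and the replicate block was run as an alternative. The lowest chi-square per degree of freedom between libraries of an age was 4.37, so no library was counted as a duplicate. Named genes were all members, with library values for those past the threshold and the 3 most abundant of each family, and up to 4 genes per list past the threshold by smallest adjusted p. The values of 1 listed gene are not reported here. The members and lists were chosen with earlier results of these data known. Promoters come from RefSeq on GRCm38.p6, a build other than that of the counts, and no coordinates of the count tables were used.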

Additional observations from a re-analysis of the deposited data

Results flagged for a closer look

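Hnrnpa0, an hnRNP of the A/B type, was at 58.8 CPM in 3-month replicate 1, against 75.0 to 77.9 CPM in the other 3-month libraries, and the gap took 0.851 of the range of the group. It was the only such case among 31 series of 4 values examined, of which chance gives about 1 in 20. The same library also had the lowest 3-month CPM of Srsf5 and of many other members, though not of all. Its summed CPM was the lowest at 3 months in both families. It was 1239 against 1361 to 1380 for hnRNP and 406 against 449 to 481 for SR. In 3-month replicate 1 there were 5932697 expected counts, and 4411964 without the Rn45s row. Replicates 2 to 4 at 3 months held 11143125, 4724687 and 6498243 counts, and 8988306, 3840574 and 5171877 without that row. The part of Rn45s in these sums was not tested.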

How the results depend on the processing

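Against 8 lower hnRNP genes, library size alone gave 5, the shortfall covariate 1, and limma on log2(TPM + 0.5) and log2(TPM + 0.1) gave 2 and 2. Leaving out a library gave 2 to 12. Over all genes tested the lower share was 5.86% in the main fit. It was 4.14%, 1.36%, 2.48% and 2.45% in these fits in the same order, and 2.20% to 7.91% without a library. With DESeq2 and with no filter on low counts it was 4.75% and 4.26%. Against no higher hnRNP gene, leaving out a library gave 0 to 1 (Hnrnpa1). Against 1 lower SR gene, library size alone, DESeq2, the covariate and both TPM fits gave 0, no filter gave 2, and leaving out a library gave 0 to 2. The 1274 genes called in all became 332 with the covariate and 580 to 1642 without a library (580 without 21-month replicate 3, 773, 834 and 745 without 3-month replicates 2, 3 and 4). The SR summed TPM ratio was 0.902 to 1.000018 without a library, passing 1 without 3-month replicate 3. With the replicate block, the fit gave 7 lower hnRNP genes and 1 SR gene, and 1075 calls in all. Over all genes tested 4.58% were lower in it. Beside Hnrnpk the block changed no other call among the members. The cause of these differences was not tested.

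Sign changes fell on uncalled genes near 0. In log2 fold change, Srsf1 became 0.0022 (relative log expression scaling), 0.013 (library size), 0.0022 (DESeq2), 0.010 (Rn45s and Lars2 removed), 0.12 (covariate) and 0.13 and 0.13 (TPM); Srsf10 became 0.0029, 0.0071, 0.011, 0.15, 0.038 and 0.039 under the same settings without DESeq2. Srsf9 became 0.0015, 0.019, 0.0012 (DESeq2), 0.011, 0.044 (replicate block), 0.11 and 0.11 (TPM). Srsf2 became 0.0024 (covariate), 0.067 and 0.067 (TPM), Srsf11 0.00038 and 0.00082 (TPM), Srsf3 0.11 (covariate), and Hnrnpa3 -0.0021 and -0.0020 (TPM). Without a library the ranges were -0.11 to 0.068 for Srsf1, -0.24 to 0.15 for Srsf10, -0.10 to 0.070 for Srsf9, -0.35 to 0.032 for Srsf3 and -0.020 to 0.26 for Hnrnpa3.

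The number of libraries, 4 and 3, limits the precision of each fold change, and no smallest detectable change was computed.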
